A study of Mus musculus with 18 samples.

Results

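The genes described here are the matrix metalloproteinases (MMPs), the ADAMTS proteases and their tissue inhibitors, the TIMPs, in hearts of mice under pressure overload. They were chosen by name: every probe set of the Affymetrix mouse chips 430A and 430B whose only gene symbol was Mmp or Adamts followed by a number, or Timp followed by a number from 1 to 4. The rule used no measured value and gave 35 of the 18193 genes with such a symbol, read by 68 of 45137 probe sets other than controls. Of the 68, 45 lay on chip 430A (27 genes) and 23 on chip 430B (13 genes), so that some genes were measured on both. A probe set is a group of short oligonucleotides for one transcript, and several probe sets of a gene can read different stretches or forms of it.

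MMPs are zinc-dependent enzymes that cut collagens, gelatin, elastin, fibronectin and other proteins of the extracellular matrix; most are secreted as inactive precursors, and some stay anchored in the cell membrane. ADAMTS enzymes are secreted relatives with thrombospondin repeats, and among them the hyalectanases cut versican and related proteoglycans while others process procollagen or bind fibrillin microfibrils. TIMPs bind the active site of MMPs and block it, and Timp3 also blocks some ADAMTS enzymes. The balance of enzyme and inhibitor is followed in the overloaded heart because the matrix between muscle cells is rebuilt there. Transcript levels do not give the amount or activity of the enzymes, which is largely set by precursor activation and by inhibitors.

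Total RNA of heart tissue was measured on 18 arrays, one of each chip for 9 samples, in 3 groups of 3. All mice were male and carried a Tet-regulated transgene for myrAkt1, an activated form of the kinase Akt1, and the αMHC-tTA driver, which is active in heart muscle cells; both transgenes were thus present in every group. The first group was taken before the operation (AAC) that makes the pressure overload, at the age of 8 weeks. The second was taken 4 weeks after AAC (age label 12 weeks), and the third 6 weeks after AAC with Akt switched on (age label again 12 weeks). These are called the hearts before AAC, the 4-week hearts and the Akt-on hearts. The titles give 3 weeks of Akt activation and the descriptions 2 weeks, and 4-week replicate 3 carries the number 1 in its description. Hearts of the later age without AAC, or at 6 weeks of AAC without Akt, are not among these samples, so AAC cannot be told apart from the passing of time, nor Akt activation from the further weeks after AAC. It is not stated whether RNA of several mice was pooled or whether atria were included.

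Levels are MAS5 signals, a brightness on a linear scale, and they were not compared between probe sets, since each binds with its own strength. Replicate arrays correlated with r of at least 0.963 on chip 430A and 0.915 on chip 430B. All 6 heart muscle markers examined were above background in all 9 hearts. Akt1 was 5.13-fold higher in Akt-on than in 4-week hearts by 1 of its 3 tested probe sets (limma, adjusted p = 0.00312); the other two differed by 0.01 and −0.02 on the log2 scale. The 3′-to-5′ ratio of the Gapdh controls, a measure of RNA integrity, lay between 1.07 and 1.32 in the hearts before AAC, between 0.828 and 0.888 in the 4-week hearts and between 0.809 and 0.93 in the Akt-on hearts. It therefore overlapped between the Akt-on and the 4-week hearts, and both lay below the hearts before AAC. Transcripts of the atrium differed many-fold within every group: the mean log2 signal of its 4 markers ran between 8.72 and 14.4 before AAC, between 8.09 and 14.02 in 4-week hearts and between 8.61 and 14.02 in Akt-on hearts. In bulk heart RNA, fewer cells of a type and less RNA per cell cannot be told apart.

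The first question is which of these genes the heart expressed measurably. The tables hold no detection calls, so background was set on each 430A array from its 65 probe sets for olfactory and vomeronasal receptors. These are genes not expected in heart, and the 95th percentile of their signals was taken. This level ran from 129 to 221 and differed by group. It lay between 196 and 221 before AAC, between 129 and 164 at 4 weeks and between 172 and 210 with Akt on. The same signal can thus be above background in a 4-week heart and below it in a heart before AAC. The part of this shift in the differences of dim 430A members was not tested. Chip 430B has 15 such probe sets, under the minimum of 20, and there the array's median signal (62.2 to 70.5) took its place, which is a more lenient bound. By this measure 22 probe sets of 12 genes were well detected, meaning above background in all 9 hearts, 20 were above it in 1 to 8 hearts, and 26 in none. The well detected count was 26 with the 90th percentile on chip 430A and the array median kept on 430B. It was 21 with the array median on both chips.

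The well detected genes were the inhibitors Timp2 (5 of 6 probe sets) and Timp3 (4 of 4), the gelatinase Mmp2 (2 of 2), the membrane-type enzyme Mmp14 (1 of 3), Mmp23 (1 of 2), and 7 ADAMTS genes: Adamts1, Adamts5 (2 of 4), Adamts9 (2 of 3), Adamts7, Adamts10 (1 of 2), Adamts12 (1 of 2) and Adamts16 (1 of 2). A further 10 genes had no well detected probe set but at least one above background in some hearts. These were Timp1 (8 hearts), Adamts3 (8), Timp4 (7), Adamts15 (7), Mmp24 (4), Mmp9 (3), Mmp11 (3), and Adamts4, Adamts6 and Adamts18 (1 heart each). Adamts3, Adamts6 and Adamts18 were read on chip 430B with its lenient level. By the 95th percentile of that chip's receptor probe sets, Adamts3 1441693_at was above background only in Akt-on replicate 3 (130.2 against 127.2). The remaining 13 genes were not above background in any heart: the collagenases Mmp8 and Mmp13, Mmp3, Mmp7 and Mmp10 of the stromelysins and matrilysin, the membrane-bound Mmp16 and Mmp17, the macrophage elastase Mmp12, Mmp19, the enamel protease Mmp20, and Adamts8, Adamts19 and Adamts20. Their signals give only a bound and do not show that the transcripts are absent. Of the 68 probe sets, 39 of 21 genes passed the filter on mean signal that the tests used (the 60% highest of each chip), including all 22 well detected ones; 29 did not pass.

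**Figure D1:**
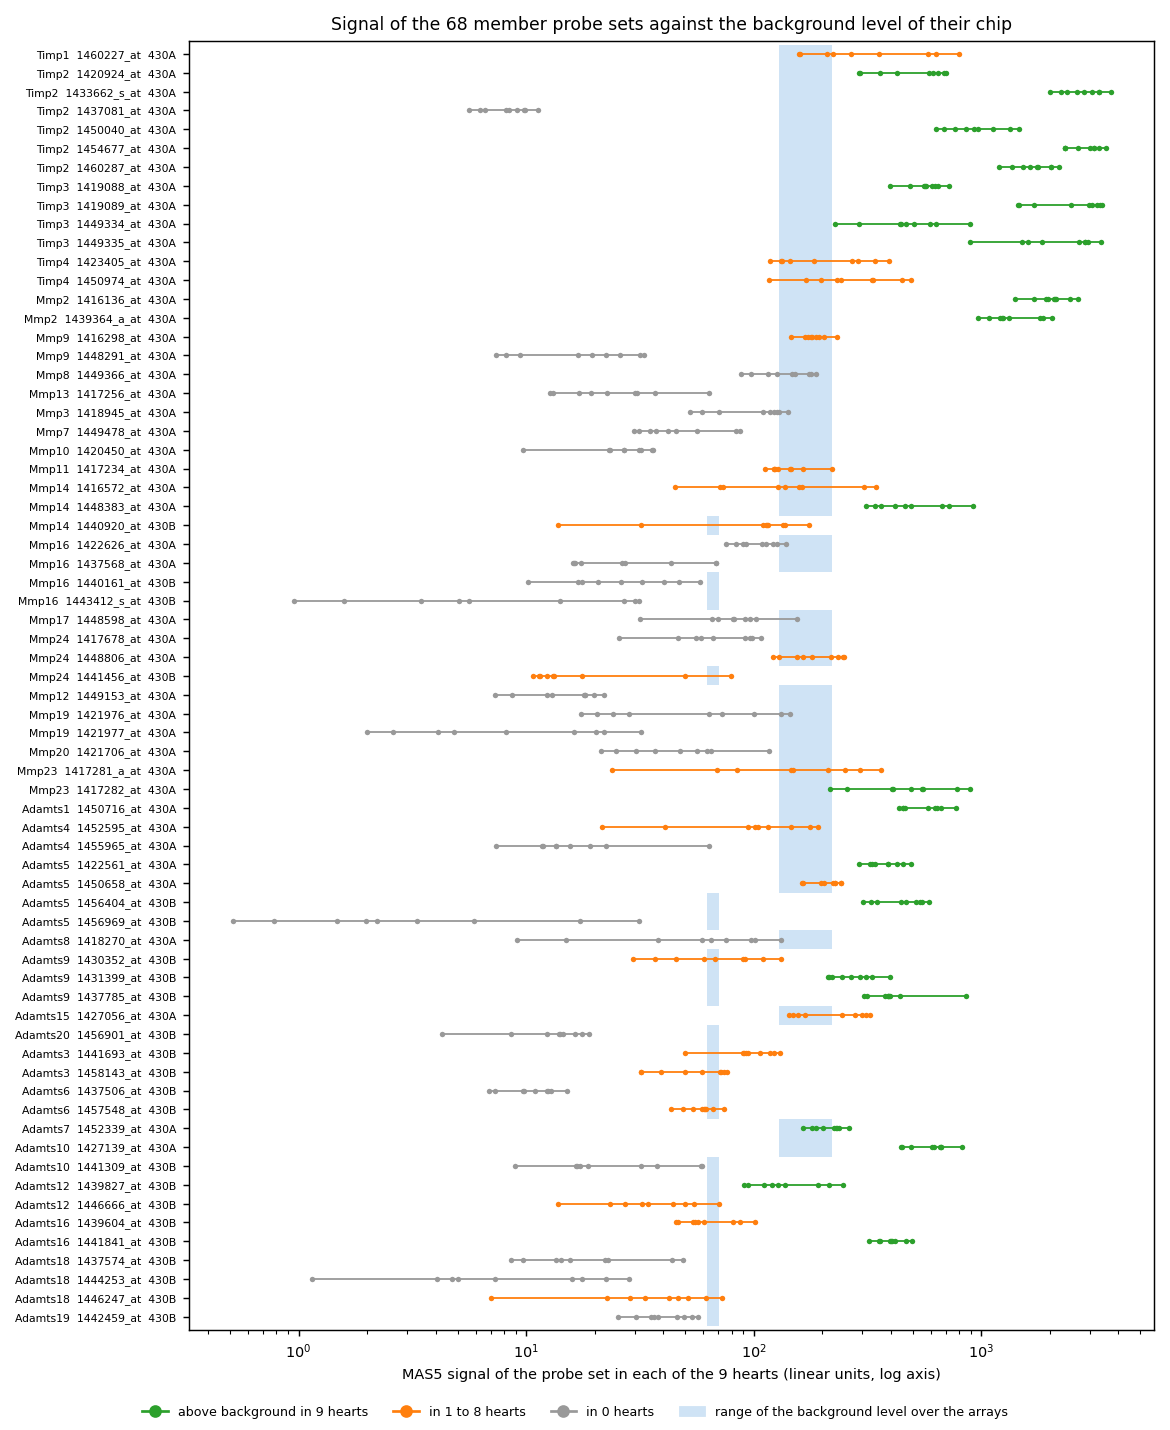
Signal of each of the 68 probe sets in the 9 hearts (points, log axis in MAS5 signal units), coloured by the number of hearts above background, with the range of the background level over the arrays of that chip shaded. The 22 well detected probe sets lie right of the shading or above their own array's level in every heart, and 26 do not exceed it in any heart.

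The comparison of Akt-on with 4-week hearts asks which genes differed once Akt had been switched on in the overloaded heart. Timp1, an inhibitor of most secreted MMPs that stressed tissue induces, Mmp14, the membrane-type protease that cuts fibrillar collagen and activates the precursor of Mmp2, and Adamts12, a secreted protease that cuts cartilage oligomeric matrix protein, rose. No member fell. Thus 3 of 39 tested member probe sets (7.69%) passed an adjusted p of 0.05 by limma, against 2.54% of all 27083 probe sets tested (1.08% higher and 1.46% lower). An unadjusted p below 0.05 was reached by 11 members, and by 17% of all. The groups did not overlap in 9 members (23.1%), against 20.6% of all. Over the members the median log2 difference was 0.13, against 0.02 over all probe sets; with no filter on signal the count over all 68 was again 3 higher and 0 lower, against 0.986% of all probe sets.

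Timp1 (probe set 1460227_at) read 224, 269 and 160.2 before AAC, 357, 210.2 and 158 at 4 weeks and 585, 796 and 632 with Akt on. The 3 Akt-on hearts lay above the other 6, whose ranges overlapped; 1 heart before AAC lay below background. On the scale of log2(signal + 32) the means were 9.45 ± 0.22 with Akt on and 8.03 ± 0.52 at 4 weeks (SD, n = 3 each), a 2.67-fold rise (log2 1.41, SE 0.25, 95% interval 0.86 to 1.97, adjusted p = 0.0141). Against the hearts before AAC, whose mean was 7.94 ± 0.33, the rise was 2.84-fold (adjusted p = 0.00373). The call against 4-week hearts ended without 4-week replicate 3 (log2 1.19, adjusted p = 0.0564) and without Akt-on replicate 2 (log2 1.29, adjusted p = 0.0612).

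Mmp14 was measured by 3 probe sets. The well detected one, 1448383_at, gave 416, 490.2 and 464 before AAC, 363, 312 and 340.3 at 4 weeks and 674, 924 and 724 with Akt on. No group overlapped another, with the 4-week hearts lowest and the Akt-on hearts highest. The means were 9.64 ± 0.23 with Akt on and 8.53 ± 0.10 at 4 weeks (SD, n = 3 each), a 2.16-fold rise (log2 1.11, SE 0.15, adjusted p = 0.00391). This call was kept in all 24 alternative analyses, with an adjusted p of at most 0.0201. The second probe set, 1416572_at, was above background in 3 hearts and gave 163, 345 and 305 with Akt on, against 138, 158 and 71.5 at 4 weeks (log2 0.96, adjusted p = 0.17). The third, 1440920_at on chip 430B, varied widely inside groups, with 114, 116 and 135 before AAC, 114, 137 and 13.8 at 4 weeks and 31.9, 175 and 110.3 with Akt on, and did not pass in any comparison.

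Adamts12 (1439827_at, chip 430B) gave 137, 121 and 127 before AAC, 94.5, 90.9 and 111 at 4 weeks and 214, 248 and 192 with Akt on. As with Mmp14, the 3 groups did not overlap and the 4-week hearts were lowest. The means were 7.96 ± 0.16 with Akt on and 7.03 ± 0.12 at 4 weeks (SD, n = 3 each), a 1.91-fold rise (log2 0.93, SE 0.16, adjusted p = 0.012), kept in all 24 alternatives. It counts as well detected by the lenient level of chip 430B. By the 95th percentile of that chip's 15 receptor probe sets (127 to 235 over the arrays), all hearts before AAC and at 4 weeks lay below background and the 3 Akt-on hearts above it. The other Adamts12 probe set, 1446666_at, lay below background in 8 of the 9 hearts and did not enter the test.

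These 3 rises were also called with the Gapdh ratio as a covariate (adjusted p = 0.0141 for Timp1, 0.00702 for Mmp14 and 0.0204 for Adamts12). Marker sums of fibroblasts and macrophages, cells known to make these proteins, overlapped between the groups, and those of smooth muscle and pericytes did not. The 8 fibroblast markers, all well detected, summed to between 40140 and 54020 signal units with Akt on and to between 36720 and 57380 at 4 weeks. The 9 macrophage markers, all well detected, summed to between 9052 and 13330 with Akt on and to between 8080 and 11300 at 4 weeks. The 6 markers of smooth muscle and pericytes, 4 of them well detected, summed to between 9676 and 12190 with Akt on and to between 12420 and 14530 at 4 weeks. Such sums follow their brightest probe sets. That of smooth muscle and pericytes was largely Rgs5, at 6484.5, 9830.8 and 8779 at 4 weeks and 6535.3, 7780.5 and 6793.5 with Akt on. Taken singly, 1 of the 6 smooth muscle and pericyte markers was called higher with Akt on and 0 lower. Of the 8 fibroblast markers 1 was called higher and 0 lower, and of the 9 macrophage markers 0 were called. None of the 7 neutrophil markers on chip 430A was well detected. The part of any of these cells in the rises was not tested.

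**Figure D2:**
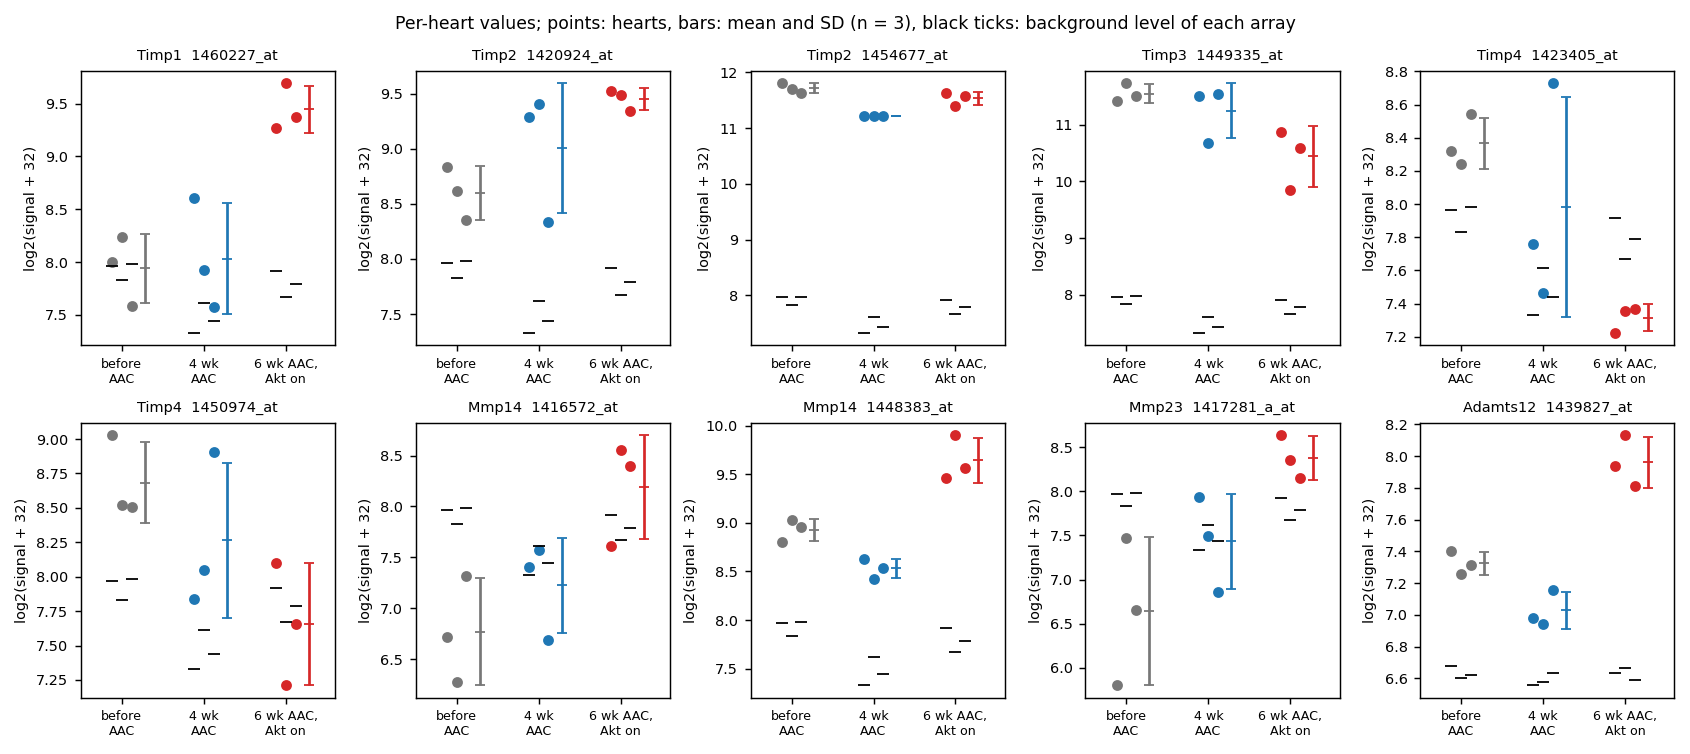
Log2(signal + 32) of the 10 member probe sets called in any comparison, in each heart, in time order within each panel; points are hearts, bars the mean and SD of 3 hearts, and black ticks the background level of each array. Timp1, Mmp14 1448383_at and Adamts12 lie highest in the 3 Akt-on hearts, while both Timp4 probe sets and Timp3 1449335_at lie lower there than before AAC.

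The comparison of Akt-on hearts with hearts before AAC spans both the overload and the Akt activation. Timp1, Mmp14, Adamts12, Mmp23 and 1 probe set of Timp2 were higher in the Akt-on hearts, while Timp4, the inhibitor best known from the heart, and 1 probe set of Timp3, the inhibitor that binds to the matrix and also blocks ADAM17 and aggrecanases, were lower. In all 6 member probe sets rose and 3 fell, which is 23.1% of the 39 tested, against 13.4% of all probe sets tested (6.86% higher and 6.51% lower). These 9 belonged to 7 genes. The groups did not overlap in 16 of the 39 (41.0%), against 32.1% of all, and 13 members had an unadjusted p below 0.05, against 28% of all. The median log2 difference was −0.13 over the members and −0.01 over all probe sets. With no filter, 6 of the 68 were higher and 1 lower, against 6.42% of all probe sets called; both Timp4 probe sets and Timp2 1420924_at lost their calls there.

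With the Gapdh ratio as a covariate, 0 of 39 members and 0 of all 27083 probe sets were called in this comparison (3 members had an unadjusted limma p below 0.05). The ratio separates the hearts before AAC from all others, so that its part in these differences cannot be told apart from that of the group. Among cell type markers, the 7 of endothelium summed to between 7788 and 9292 in Akt-on hearts, against 12580 to 14170 before AAC. The 6 of smooth muscle and pericytes summed to between 9676 and 12190, against 16340 to 18100, and the 6 of heart muscle to between 104900 and 125500, against 133500 to 148200. The fibroblast sum of 40140 to 54020 overlapped that before AAC, 52840 to 57450. Taken singly, 3 of the 7 endothelium markers, 1 of the 6 of smooth muscle and pericytes and 2 of the 6 of heart muscle were called lower. In these 3 lists 0 were called higher, and of the 8 fibroblast markers 1 was higher and 1 lower. The part of these marker shifts in the differences that follow was not tested.

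Among the 12 tested TIMP probe sets 2 rose, 3 fell and 7 did not pass, which is 41.7% called, against 13.4% of all probe sets. The 12 read only 4 genes and are not independent. With the probe sets of a gene averaged, Timp1 (log2 1.51) and Timp4 (log2 −1.04) were called, and Timp2 and Timp3 were not. The fall of Timp4 was seen with both of its probe sets. Timp4 1423405_at gave 118, 132 and 133 in the Akt-on hearts, against 287, 270.3 and 340.1 before AAC; the 4-week hearts spread over both ranges, with 184, 144 and 392. The Akt-on hearts were not above background, so the level before AAC was at least 1.49-fold higher (log2 −1.05, adjusted p = 0.0255). Timp4 1450974_at gave 242, 116 and 169.9 with Akt on, against 489, 335 and 331 before AAC, with 197, 233 and 447 at 4 weeks (log2 −1.03, SE 0.29, adjusted p = 0.0375). In both probe sets 4-week replicate 3 lay near the hearts before AAC and the other 4-week hearts below them. The first call ended without any 1 of the 6 hearts compared (adjusted p from 0.0529 to 0.0974), and the second without any of them but Akt-on replicate 1 (up to 0.132).

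The 4 Timp3 probe sets did not move alike. Timp3 1449335_at gave 2700.1, 3372 and 2862 before AAC, 2872, 1614 and 2950.1 at 4 weeks and 1851, 892 and 1506 with Akt on. The Akt-on hearts lay below those before AAC, by −1.11 on the log2 scale (SE 0.27, 2.16-fold lower, adjusted p = 0.0182). Timp3 1419089_at gave 2969.8, 1458 and 1472 with Akt on, against 3409, 3065 and 3339.7 before AAC, with 3222, 1700.1 and 2494 at 4 weeks (log2 −0.81, adjusted p = 0.0684). Timp3 1449334_at gave 508, 595 and 467 before AAC, 897, 439 and 631 at 4 weeks and 446, 228 and 291 with Akt on, with log2 differences of −0.95 against 4 weeks (adjusted p = 0.0777) and −0.69 against before AAC (adjusted p = 0.0995). It passed against 4 weeks with the atrial covariate (adjusted p = 0.0333), without 4-week replicate 2 (0.0443) and without Akt-on replicate 1 (0.0369), and against before AAC without Akt-on replicate 1 (0.0301). In these 3 probe sets every Akt-on heart lay below every heart before AAC. The fourth, 1419088_at, gave 722, 561 and 397 before AAC, 628, 571 and 647 at 4 weeks and 565, 486 and 607 with Akt on; these ranges overlapped (log2 0.01, 95% interval −0.40 to 0.43). The mean of all Timp3 probe sets did not pass (log2 −0.65, adjusted p = 0.0615), and the call of 1449335_at ended without before-AAC replicate 2 or 3 or Akt-on replicate 2 (adjusted p up to 0.0688).

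Timp2, which inhibits MMPs and also takes part with Mmp14 in the activation of the Mmp2 precursor, was measured by 6 probe sets with unlike patterns. Timp2 1420924_at gave 425, 359 and 294 before AAC, 592, 645 and 290.2 at 4 weeks and 703, 687 and 617 with Akt on. It rose in Akt-on hearts against before AAC (log2 0.85, SE 0.24, 1.8-fold, adjusted p = 0.0395), but the call ended without any 1 of the 6 hearts compared (adjusted p from 0.0528 to 0.147). The other tested Timp2 probe sets did not pass in this comparison. Timp2 1433662_s_at gave 2627, 3310.2 and 2845 before AAC, 3282, 2242 and 2002 at 4 weeks and 3703, 2373 and 3055 with Akt on (log2 0.04 for Akt on minus before AAC). Timp2 1460287_at gave 1366, 1754 and 1523 before AAC, 2209.6, 1632 and 1199.5 at 4 weeks and 2032, 2021 and 1771 with Akt on (log2 0.33, adjusted p = 0.3). Timp2 1450040_at gave 971, 1126 and 934 before AAC, 1340.4, 855 and 635 at 4 weeks and 1465, 689 and 769 with Akt on (log2 −0.12, adjusted p = 0.821). In these last 3 probe sets the highest heart of each group was the one with the highest atrial marker mean of its group. Timp2 1437081_at stayed between 5.6 and 11.3, far below background. The mean of the tested Timp2 probe sets did not pass (log2 0.18, adjusted p = 0.537).

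Among the enzymes, Mmp14 1448383_at was 1.64-fold higher in Akt-on hearts than before AAC (log2 0.71, adjusted p = 0.0106). Mmp14 1416572_at, with 8.19 ± 0.51 on the log2 scale with Akt on against 6.77 ± 0.53 before AAC (SD, n = 3 each), was not above background in the hearts before AAC, so that the rise was at least 1.2-fold (log2 1.42, adjusted p = 0.0181); it lost its call without before-AAC replicate 1 or 2 or Akt-on replicate 2 or 3 (adjusted p up to 0.0742). Adamts12 1439827_at was 1.55-fold higher (log2 0.64, adjusted p = 0.0238), a call that ended without before-AAC replicate 2 or 3 or Akt-on replicate 2 (adjusted p up to 0.0833).

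Mmp23, a membrane-anchored protease that lacks the usual haemopexin domain, was read by 2 probe sets. Mmp23 1417281_a_at gave 23.9, 146 and 69.2 before AAC, 213, 148 and 84.2 at 4 weeks and 365, 294 and 251 with Akt on. It was not above background before AAC, so the rise was at least 1.36-fold (log2 1.73, adjusted p = 0.0127). Mmp23 1417282_at, the well detected one, gave 411, 554 and 257 before AAC, 405, 492 and 216 at 4 weeks and 549, 892 and 782 with Akt on; its log2 differences of 0.98 against 4 weeks (adjusted p = 0.118) and 0.85 against before AAC (adjusted p = 0.0884) did not pass. In both probe sets the 3 Akt-on hearts lay above the 3 hearts at 4 weeks.

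The gelatinases did not pass in any comparison. Mmp2, which cuts denatured collagen and collagen of basement membranes, was well detected by both probe sets. Mmp2 1416136_at gave 2088, 1973 and 2112 before AAC, 2657, 1700.1 and 1410.3 at 4 weeks and 2140.5, 2463 and 1923 with Akt on, and Mmp2 1439364_a_at gave 1238, 1246 and 1212, 2058, 1077 and 966 and 1870.4, 1817 and 1328 in the same order of groups. 4-week replicate 1 had the highest value of all 9 hearts in both. Akt-on hearts differed from those before AAC by 0.07 (95% interval −0.35 to 0.50) and 0.41 (−0.10 to 0.93) on the log2 scale, intervals that leave room for changes of either sign. Mmp9, the gelatinase of white blood cells, gave 233, 178 and 195 before AAC, 203, 146 and 174 at 4 weeks and 188, 168 and 181 with Akt on (1416298_at), near the background level in every heart. The other Mmp9 probe set, 1448291_at, was not above background in any heart and did not enter the test.

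The hyalectanases showed no call, although all 8 of their tested probe sets had a lower mean in Akt-on hearts than before AAC (median log2 difference −0.37). Over all probe sets tested, 48.9% had a higher mean in Akt-on hearts. The 8 are not independent, since Adamts5 and Adamts9 have 3 each, and Adamts1 and Adamts15 have 1 each. Adamts1, a versican-cutting protease that is induced early in stressed tissue, had the smallest p. Adamts1 1450716_at gave 776, 668 and 627 before AAC, 436, 453 and 637 at 4 weeks and 454, 462 and 581 with Akt on (log2 −0.45 for Akt on minus before AAC, adjusted p = 0.109; log2 −0.43 at 4 weeks against before AAC, adjusted p = 0.166). The differences of the 3 tested Adamts5 probe sets were between −0.18 and −0.06 in Akt-on hearts against before AAC, and those of the 3 Adamts9 probe sets between −0.53 and −0.34. Adamts9 1437785_at stood out by 1 heart, before-AAC replicate 1, at 858 units, while the other 8 hearts lay between 305 and 440.0.

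The comparison of 4-week hearts with hearts before AAC asks which members differed with the overload before Akt was switched on. Of the 39 tested member probe sets 0 rose and 1 fell (2.56%), against 4.43% of all probe sets tested (2.75% higher and 1.68% lower), a share of members no higher than the background. An unadjusted limma p below 0.05 was reached by 6 members, and by 21.7% of all probe sets. The groups did not overlap in 6 members (15.4%), all 6 lower at 4 weeks, against 29.3% of all probe sets. The median log2 difference was −0.18 over the members and −0.04 over all. The 1 that fell was Timp2 1454677_at, with 2338, 2344 and 2335 in the 4-week hearts against 3550.4, 3298 and 3146 before AAC (log2 −0.50, SE 0.11, adjusted p = 0.0315). The Akt-on hearts lay between, at 3139.9, 2659 and 3014. The call ended without any 1 of the 6 hearts compared (adjusted p from 0.0585 to 0.102), and the mean of the tested Timp2 probe sets gave a log2 difference of −0.08 (adjusted p = 0.827). The Gapdh ratio differs between these groups as given above, and with it as a covariate 0 members and 0 of all probe sets were called (2 members had an unadjusted limma p below 0.05). Marker sums were also lower at 4 weeks for endothelium (8155 to 10640, against 12580 to 14170 before AAC) and for smooth muscle and pericytes (12420 to 14530, against 16340 to 18100). That of heart muscle was lower too (110100 to 119100, against 133500 to 148200). These sums follow their brightest probe sets. Taken singly, 1 of the 7 endothelium markers, 0 of the 6 of smooth muscle and pericytes and 1 of the 6 of heart muscle were called lower. In these lists 0 were called higher. The part of these marker shifts in the differences was not tested.

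Adamts15, a hyalectanase, came next. Adamts15 1427056_at gave 156, 148 and 168 at 4 weeks against 279.9, 326 and 301 before AAC, with 311, 142 and 244 with Akt on. Every 4-week heart lay below every heart before AAC (log2 −0.82, adjusted p = 0.0595). The signal of 4-week replicate 2, 148, was below its background level of 164. The difference passed under 4 of 23 alternatives (adjusted p from 0.0178 to 0.0367) and did not pass under 19 (adjusted p up to 0.976). Those 4 were only both groups compared in the fit, adjustment within each chip, and leaving out Akt-on replicate 1 or Akt-on replicate 2. Neither of these Akt-on hearts belongs to the groups compared here. Mmp24 1448806_at, a membrane-type MMP best known from the nervous system, gave 122, 156 and 129 at 4 weeks against 247, 181 and 250.4 before AAC and 219, 165 and 234 with Akt on; the 4-week hearts were at or below background (log2 −0.61, adjusted p = 0.0938). Mmp14 1448383_at also had its 4-week hearts below those before AAC (log2 −0.40, adjusted p = 0.147), as had Adamts12 (log2 −0.30, adjusted p = 0.322) and Adamts10, which binds fibrillin microfibrils. Adamts10 1427139_at gave 607, 448 and 491 at 4 weeks against 667, 827 and 618 before AAC (log2 −0.43, adjusted p = 0.204). None of these passed.

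**Figure D3:**
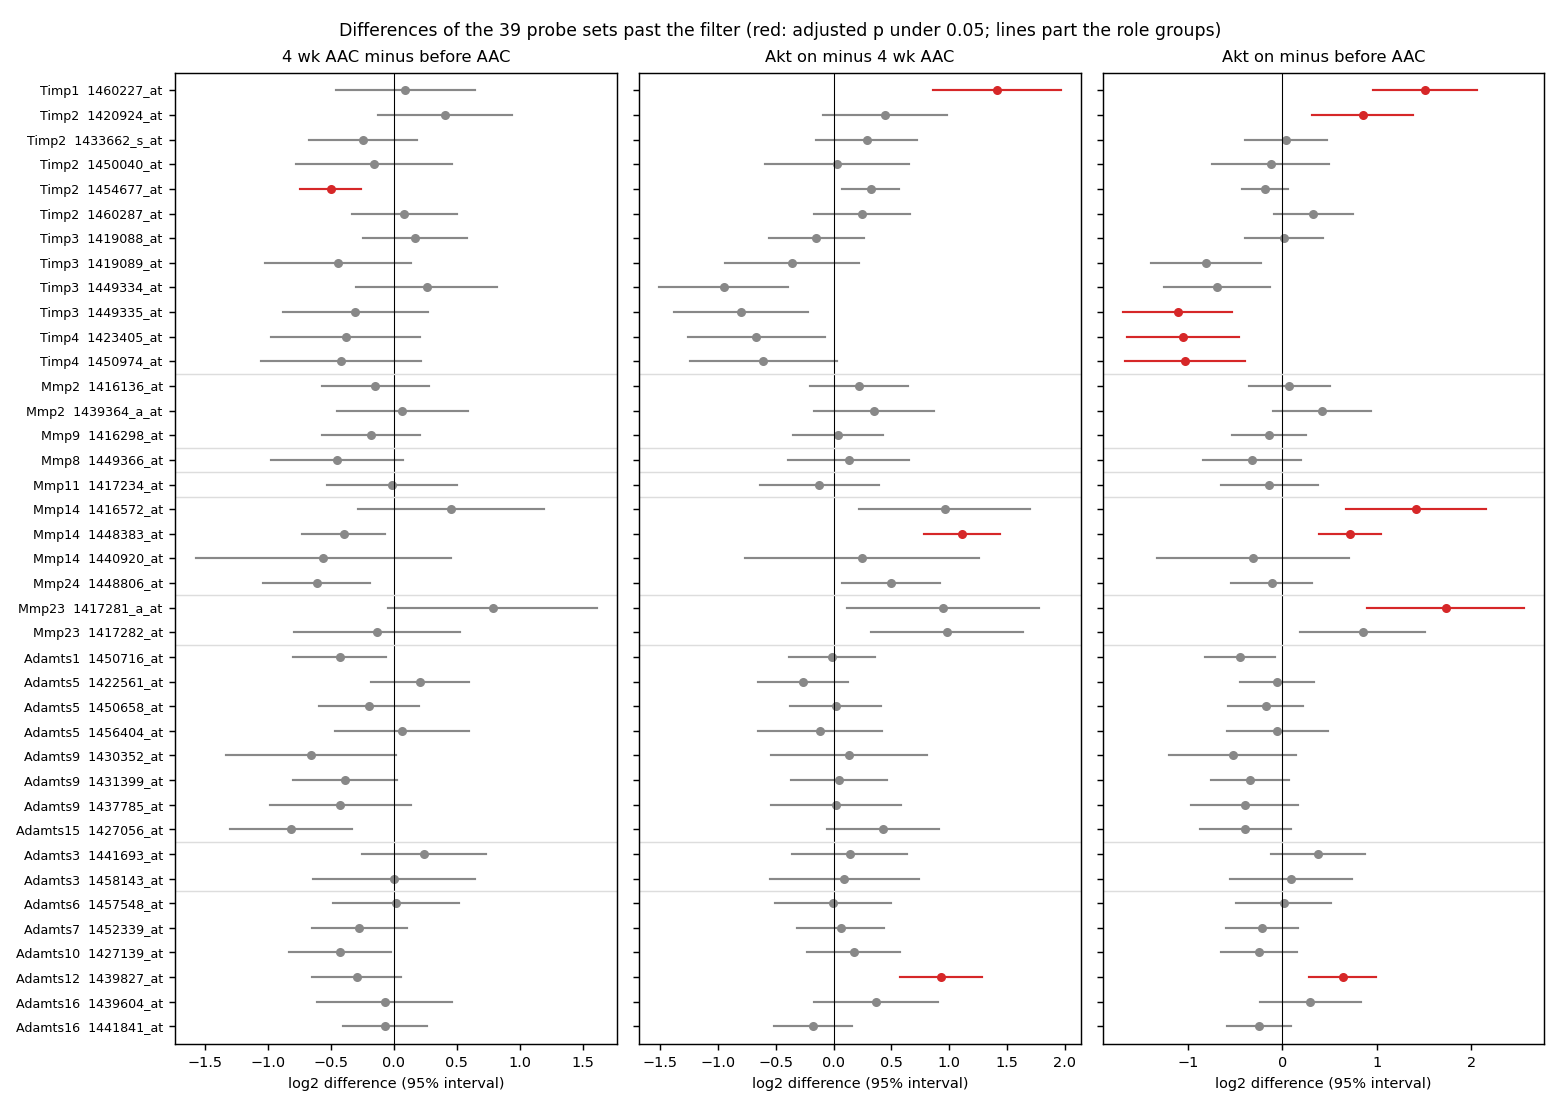
Log2 differences (points) with 95% intervals (lines) of the 39 tested member probe sets in the 3 comparisons, grouped by role; red marks an adjusted p under 0.05. There is 1 red point at 4 weeks against before AAC, to the left of 0, there are 3 for Akt on against 4 weeks, to the right, and 9 for Akt on against before AAC, 6 right and 3 left.

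The other tested members did not pass in any comparison, and several of them lay near background. The neutrophil collagenase Mmp8 (1449366_at) gave 148, 179 and 188 before AAC, 115, 152 and 87.8 at 4 weeks and 176, 97.3 and 126 with Akt on. Mmp11, stromelysin-3, gave 220.4, 112 and 124, 145, 164 and 127 and 147, 122 and 123 in the same order of groups (1417234_at). Adamts3, a procollagen N-proteinase that also takes part in VEGF-C maturation, gave 49.8, 107 and 92.1 before AAC, 123, 90.4 and 90.3 at 4 weeks and 119, 94.4 and 130.2 with Akt on (1441693_at, chip 430B). In none of these did the groups separate. Adamts7 and Adamts16, each well detected by 1 probe set, and Adamts6 had log2 differences between −0.28 and 0.37 over their probe sets and the 3 comparisons. Mmp19, below background in every heart and also below the filter, had 28.2, 20.6 and 24.1 units before AAC, 63.9, 72.6 and 17.5 at 4 weeks and 144, 133 and 100.1 with Akt on (1421976_at). With no filter it was among the 6 called higher in Akt-on hearts against before AAC (log2 1.48, adjusted p = 0.0139). With no filter Adamts8 1418270_at, likewise below background, was called lower at 4 weeks (log2 −1.31, adjusted p = 0.0492). Both were singled out after their values had been seen, and with all hearts of both groups below background no fold is given.

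**Figure D4:**
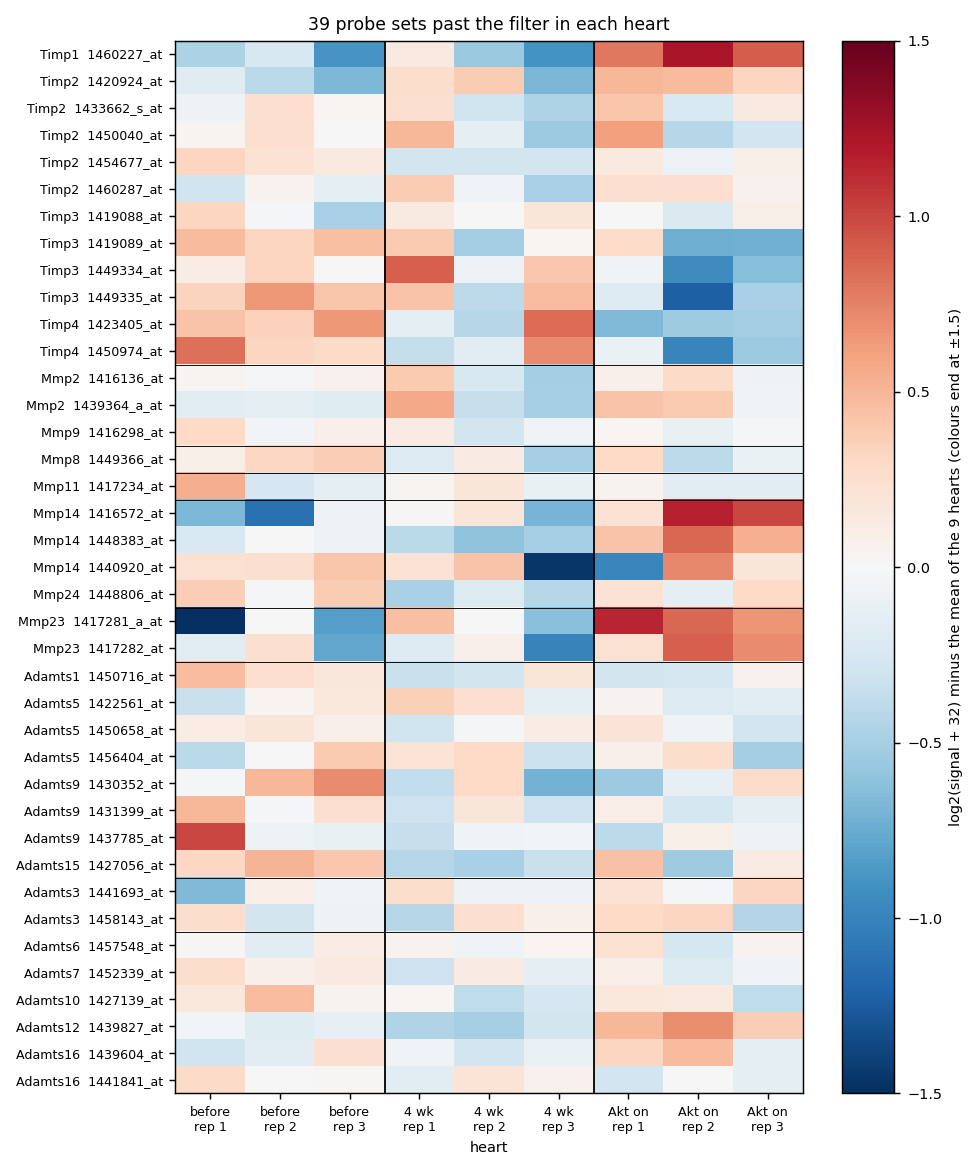
Log2(signal + 32) of the 39 tested member probe sets in each heart (columns, in time order) minus the mean of the 9 hearts; red is above and blue below that mean, the colours end at 1.5, and lines part the groups and the roles. Timp1, Mmp14 1416572_at, Mmp14 1448383_at and both Mmp23 rows are red in the 3 Akt-on hearts, whereas Mmp2 and most ADAMTS rows vary as much inside groups as between them.

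Upstream sequence is shown for 5 members that rose or fell in Akt-on hearts, so that the ends from which they are transcribed can be read beside their values: Timp1, Mmp14 and Adamts12, which rose, and Timp3 and Timp4, which fell in 1 and 2 probe sets. RefSeq promoter entries on GRCm38.p6 were matched by symbol for 21 of the 35 member genes. Each line gives the 250 bases before the annotated start, 5′ to 3′ on the gene's strand. Capitals mark matches on either strand to AP-1 (TGANTCA), FoxO (TGTTTAC), the GC box (GGGCGG), the TATA box (TATAAA) and Ets (AGGAAG).
Timp1 promoter, chrX:20869916-20870165, plus strand: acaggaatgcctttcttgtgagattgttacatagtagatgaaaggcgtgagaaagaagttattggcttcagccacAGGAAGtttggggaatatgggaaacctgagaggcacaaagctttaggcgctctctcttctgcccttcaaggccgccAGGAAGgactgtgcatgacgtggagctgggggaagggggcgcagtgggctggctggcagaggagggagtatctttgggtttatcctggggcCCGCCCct
Mmp14 promoter, chr14:54431348-54431597, plus strand: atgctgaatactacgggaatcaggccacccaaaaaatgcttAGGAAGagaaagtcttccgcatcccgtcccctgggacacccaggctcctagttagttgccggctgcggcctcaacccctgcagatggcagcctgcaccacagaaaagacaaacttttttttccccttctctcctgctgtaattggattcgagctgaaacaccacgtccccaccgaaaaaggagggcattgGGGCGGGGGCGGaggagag
Adamts12 promoter, chr15:11064523-11064772, plus strand: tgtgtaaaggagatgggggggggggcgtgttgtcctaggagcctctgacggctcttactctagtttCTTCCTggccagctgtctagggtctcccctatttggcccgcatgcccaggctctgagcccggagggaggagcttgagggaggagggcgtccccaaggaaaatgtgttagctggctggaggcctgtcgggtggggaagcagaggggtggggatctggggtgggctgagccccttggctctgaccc
Timp3 promoter, chr10:86300162-86300411, plus strand: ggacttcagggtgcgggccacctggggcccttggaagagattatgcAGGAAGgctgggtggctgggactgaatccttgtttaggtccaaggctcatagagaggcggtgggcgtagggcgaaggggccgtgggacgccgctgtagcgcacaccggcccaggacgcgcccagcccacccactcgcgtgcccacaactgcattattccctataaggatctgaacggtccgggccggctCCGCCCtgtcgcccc
Timp4 promoter, chr6:115252206-115252455, minus strand: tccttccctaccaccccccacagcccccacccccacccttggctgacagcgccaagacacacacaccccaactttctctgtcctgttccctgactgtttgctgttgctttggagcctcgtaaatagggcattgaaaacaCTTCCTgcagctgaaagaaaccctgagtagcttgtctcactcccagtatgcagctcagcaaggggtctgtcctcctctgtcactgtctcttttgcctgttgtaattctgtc
An Ets match was present in 5 of the 5 windows and in 29.5% of 32851 promoters of the same length. A GC box was present in 3 of the 5, those of Timp1, Mmp14 and Timp3, and in 32.7% of promoters. No match to AP-1 (6.75% of promoters), FoxO (3.17%) or TATA (12.4%) was found in the 5 windows. No 2 marked matches of different motifs overlapped. The matches describe letters in these windows only, and Ets matches stood in genes that rose and in genes that fell. The 5 genes were picked from those called in these data, and Mmp23 and Timp2, also called, are not shown. Matches were not counted over the other member genes. The 5 of 5 therefore does not show that Ets matches are more common among genes that rose or fell.

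Other genes of matrix turnover were read from lists of related genes, in the same fit. Of 54 tested probe sets of 28 substrate genes, such as collagens, elastin and proteoglycans, 18 (12 genes) rose and 0 fell in Akt-on against 4-week hearts, against 1.08% of all probe sets higher. Their median log2 difference was 0.72, against 0.02 over all probe sets. The chain of elastic fibres Eln (1420854_at, log2 2.61), the fibrillar collagen genes Col5a1 (1416741_at, log2 1.65) and Col1a1 (log2 1.97), and the matricellular protein gene Tnc (log2 2.09) had the smallest p. Against before AAC 16 of the 54 (11 genes) rose and 0 fell in Akt-on hearts, against 6.86% of all higher, with a median of 0.52 against −0.01 over all; Eln (log2 2.34), Col5a1 (1.95), Postn (2.88), which encodes periostin, and the laminin chain Lamc1 (1.45) led by p. For versican (Vcan), the main substrate of the hyalectanases, probe set 1421694_a_at rose by 1.14 on the log2 scale against 4-week hearts (adjusted p = 0.00991), while no hyalectanase passed. The Vcan probe sets 1427256_at and 1427257_at did not pass against 4-week hearts. Both were called higher in Akt-on hearts against before AAC (log2 1.14 and 1.60). At 4 weeks against before AAC, 1 substrate probe set rose (Lamc1, log2 1.07) and 3 fell, where 2.75% of all were higher and 1.68% lower. The 3 that fell were those of the basement membrane proteoglycan gene Hspg2 (−0.65 and −0.83) and 1 of Col5a1 (1416740_at, −0.59). Col1a1 and Col1a2 stand both on this list and among the fibroblast markers.

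The plasminogen, cathepsin and ADAM lists were read in the same way. Over all probe sets tested, 2.75% were higher and 1.68% lower at 4 weeks than before AAC. In Akt-on against 4-week hearts 1.08% were higher and 1.46% lower, and in Akt-on hearts against before AAC 6.86% and 6.51%. In plasminogen activation (9 probe sets) Anxa2, a receptor for plasminogen and its activator, rose in Akt-on against 4-week hearts (log2 0.72) and was lower at 4 weeks than before AAC (log2 −0.78); the other 8 did not pass in either, and none of the 9 passed for Akt on against before AAC. Of 21 cathepsin and cystatin probe sets, 1448732_at of Ctsb, a lysosomal cysteine protease, rose at 4 weeks (log2 0.58) against before AAC. It also rose in Akt-on hearts against before AAC (log2 0.76), as did 1450652_at of Ctsk, which cuts collagen (log2 1.08). These counts, 1 and 2 of 21, were not tested against the shares over all probe sets. None of the 21 passed for Akt on against 4 weeks. Of 18 probe sets of ADAM and ADAMTS-like genes, Adamtsl2, a microfibril-binding protein without protease activity, rose with Akt on against 4 weeks (log2 0.84) and against before AAC (1.04). Adam9 rose at 4 weeks (log2 1.08) and with Akt on (0.99) against before AAC, as did Adam17 with Akt on in 2 probe sets (0.65 and 0.68). Thus 4 of the 18 rose and 0 fell in Akt-on hearts against before AAC, where 6.86% of all probe sets were higher.

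Among 16 probe sets of activators, receptors and other inhibitors, 2 rose and 1 fell in Akt-on against 4-week hearts, where 1.08% of all probe sets were higher and 1.46% lower. Those of Thbs1, the matricellular protein thrombospondin-1, rose by 1.24 and 1.18 on the log2 scale, and that of Bsg, the membrane glycoprotein basigin known to induce MMPs, fell (log2 −0.69). Against before AAC, 4 rose and 3 fell in Akt-on hearts, where 6.86% of all probe sets were higher and 6.51% lower: both of Thbs1 (1.30 and 1.35) and both of Pcolce, an enhancer of procollagen C-terminal processing (0.92 and 0.86), rose, while Bsg (−0.70), the proprotein convertase gene Pcsk6 (−0.78) and Thbs2 (−0.95) fell. None of the 16 passed at 4 weeks against before AAC. The comparisons share hearts, the 4-week or the before-AAC group, so their counts are not independent of each other.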

How the data were processed

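Heart RNA of 9 samples was hybridized to chips 430A and 430B. Per the labels, the authors extracted total RNA with the Ultraspec-II system, labelled it with biotin and computed MAS5 values; version, scaling target and chip definition are not given in the sources used here. The deposited values are intensities (MAS5 signals on a linear scale). Their trimmed means, computed here with 2% off each end, were nearly the same on all arrays of a chip (500.2 on 430A and 122.5 on 430B). Scaling by the authors to a common level is inferred from this and not stated. 430B is thus on a scale 4.083 times lower, and the pseudocount weighs more there. From these deposited intensities each array was rescaled to its chip's trimmed mean and log2(signal + 32) was taken here; fold changes are on that scale and understate changes of dim probe sets.

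The 128 control probe sets and the 40% of probe sets with the lowest mean signal on each chip were left out, which left 27083. Tests used R 4.3.3 with limma 3.58.1 (lmFit with 3 group means, eBayes with trend, per chip), two-sided, with Benjamini-Hochberg adjustment over both chips and a threshold of 0.05. Rose, fell and called refer to this threshold. The procedure was tested on simulated data. The 3 arrays of a chip in each group limit the precision; since separate animals are not stated for the replicates, p-values measure only the spread between these samples. No columns of a group held identical values. Symbols came from the platform annotation.

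Where a group was not above background in any of its hearts, a fold is given as a bound, from group means of log2 values with the dim group's hearts set to the background level where they lay under it. Per-heart values are given for each called member probe set, for all tested probe sets of the TIMPs, Mmp2, Mmp9 and Mmp14, and for the smallest p of each role group in each comparison; of the related lists up to 4 called genes a comparison are named, by smallest p, with Vcan, Ctsb and the other called genes of short lists added after their values were seen. The members and lists were chosen with earlier results of these data known. Protein sequences planned for the named members are not used here. Same-numbered replicates of different groups did not deviate together (r from −0.239 to 0.143), so the number was used as a block in an alternative only. Alternatives varied scaling, pseudocount, filter, probe set choice, variance model, samples, adjustment, covariates and single hearts.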

Additional observations from a re-analysis of the deposited data

How the results depend on the processing

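The count of 3 members called for Akt on against 4 weeks was 3 under every alternative but the atrial covariate (4); without single hearts the count ran from 2 to 4. For 4 weeks against before AAC the count of 1 became 2 with no filter, with only both groups compared in the fit or with adjustment within each chip. It became 0 with probe sets of a gene averaged, no variance trend, the replicate block, 4-week replicates 1 and 3 averaged, or the Gapdh covariate (5, 6, 8, 7 and 2 members at an unadjusted p under 0.05 by limma); without single hearts it ran from 0 to 2. Without 4-week replicate 3 the 1 called was Timp2 1420924_at, higher (log2 0.74, adjusted p = 0.044). For Akt on against before AAC the count of 9 became 5 with 40% of probe sets kept, 4 with one probe set per gene and 5 with probe sets averaged (both counted over genes), and 0 with the Gapdh covariate; without single hearts it ran from 3 to 10, with 3 without before-AAC replicate 2 or Akt-on replicate 2, 4 without before-AAC replicate 3 and 5 without before-AAC replicate 1 or Akt-on replicate 3. With the replicate block the 3 counts were 0, 3 and 11. Over all probe sets the count for 4 weeks against before AAC, 1199, ran from 118 to 1799 without single hearts and was 0 with the Gapdh covariate, as was the 3623 for Akt on against before AAC (1696 to 4083 without single hearts); the 688 for Akt on against 4 weeks ran from 239 to 642. Of 303 alternatives to the 13 called results, 248 kept the call, 55 lost it and 0 turned; of 442 alternatives to the 19 uncalled results that had the smallest p of their role group, 4 gained a call (all Adamts15) and 10 turned. Other uncalled members also gained calls: Timp3 1449334_at as given above, Timp3 1419089_at with Akt on against before AAC with the replicate block, with adjustment within each chip and without Akt-on replicate 1 (adjusted p = 0.0273, 0.0499 and 0.0064), and Mmp23 1417282_at there with the block and without 4-week replicate 3 (0.0431 and 0.0487). Those that turned among the 19 were Mmp11 and Mmp8, both near or below background. Mmp11 at 4 weeks against before AAC gave 0.12 under quantile scaling, 0.022 with 4-week replicates 1 and 3 averaged, 0.23 without before-AAC replicate 1 and 0.059 without 4-week replicate 3, and with Akt on against before AAC 0.11 without before-AAC replicate 1; without single hearts these ran from −0.17 to 0.23 and from −0.29 to 0.11. Mmp8 gave 0.058 and 0.18 with the Gapdh covariate at 4 weeks and with Akt on against before AAC, and with Akt on against 4 weeks −0.01 under quantile scaling, −0.02 without 4-week replicate 3 and −0.05 without Akt-on replicate 1, in a range of −0.05 to 0.29 without single hearts. Where no value shows the cause of a change with the setting, the cause was not tested. The well detected count of 22 was 30 when background had to be exceeded in all 3 hearts of at least 1 group. Signal near background limits Timp1 before AAC, Timp4 with Akt on, Mmp9 and Mmp24.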

Other observations

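Markers of 3 further tissues were read beside the members. None of the 6 cartilage and valve markers, among them the aggrecanase substrate Acan, was well detected. Their signals summed to between 522.2 and 788 units before AAC, between 364.6 and 542.8 in 4-week hearts and between 588.1 and 779.6 in Akt-on hearts. None of the 4 mesothelium markers on chip 430A was well detected, with sums between 423.8 and 608.2 before AAC, between 263.2 and 1021 in 4-week hearts and between 236.2 and 364 in Akt-on hearts. Of the 7 skeletal muscle markers 1 was well detected, Ckm, and the others were above background in 0 hearts. The sums lay between 26610 and 29190 before AAC, between 19820 and 23060 in 4-week hearts and between 19760 and 23700 in Akt-on hearts. They were nearly all Ckm, which gave 26417, 27500 and 29025 before AAC, and so do not describe the other markers of the list.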
